A study of Mus musculus with 3 samples.

Results

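The genes described here encode proteins of cell fusion and of the osteoclast, the giant cell of the macrophage lineage that resorbs bone: Dcstamp, Ocstamp, Atp6v0d2, Acp5, Oscar, Calcr, Nfatc1, Siglec15 and Car2. These 9 of the 19938 genes with a probe set of their own were selected on names known from osteoclast biology and with earlier results of the same arrays in view, and a gene with several probe sets would have been chosen by the highest mean of the deposited log2 values. Each of the 9 had 1 probe set, which names no other gene, so that choice never had to be made. The arrays hold total RNA of bone marrow-derived dendritic cells (BMDC) from C57BL/6J mice, in which marrow cells were cultured for 9 days with 20 ng/ml GM-CSF plus 20 ng/ml IL-4. All 3 samples share this strain, these cytokines and this time, and the labels give no genotype change, added agent or second condition. No sorting step and no separate animals or cultures are named in the labels, so each SD below measures how far these 3 samples differ, which may be technical. With 1 group there is no contrast to test, and the values describe which of the genes were detected and how far the arrays differed.

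Osteoclasts arise when precursors that carry the M-CSF receptor meet RANKL, the ligand of the receptor RANK. Together with signals from receptors that pair with ITAM adaptors (adaptor proteins with a tyrosine-based activation motif), RANK induces the transcription factor NFATc1, which switches on genes of fusion and resorption. Precursors then fuse, and the giant cell seals off a patch of bone, acidifies it with a proton pump and digests it. Macrophages kept with IL-4 or GM-CSF can fuse too, into foreign-body giant cells, and DC-STAMP, a multipass membrane protein, was first named for its expression in dendritic cells. Several of these genes are therefore known from myeloid cells other than osteoclasts.

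Of the 9 genes, 7 lay above background in each of the 3 arrays, against 60.5% of all genes with a probe set. Background here is the 95th percentile of the probe sets for olfactory and vomeronasal receptors on the same array, which came to 5.54, 5.54 and 5.55 log2 units in replicates 1, 2 and 3. Dcstamp, Ocstamp, Atp6v0d2, Acp5, Nfatc1, Siglec15 and Car2 passed, and Oscar and Calcr did not. The limit is a lenient one, since 12 of 46 genes of other tissues, such as those of liver or skin, passed it as well. With the 99th percentile of those probe sets as the limit (6.28, 6.24 and 6.33) the same 7 genes passed, against 46.2% of all genes. At the 95th percentile of the 46 genes of other tissues (6.61, 6.59 and 6.59), which 42.0% of all genes exceeded, 6 passed and Siglec15 fell out. Since the genes were chosen with results in view, these counts are a description. Probe sets bind with different strength, so the levels of different genes are not ranked here.

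**Figure D1:**
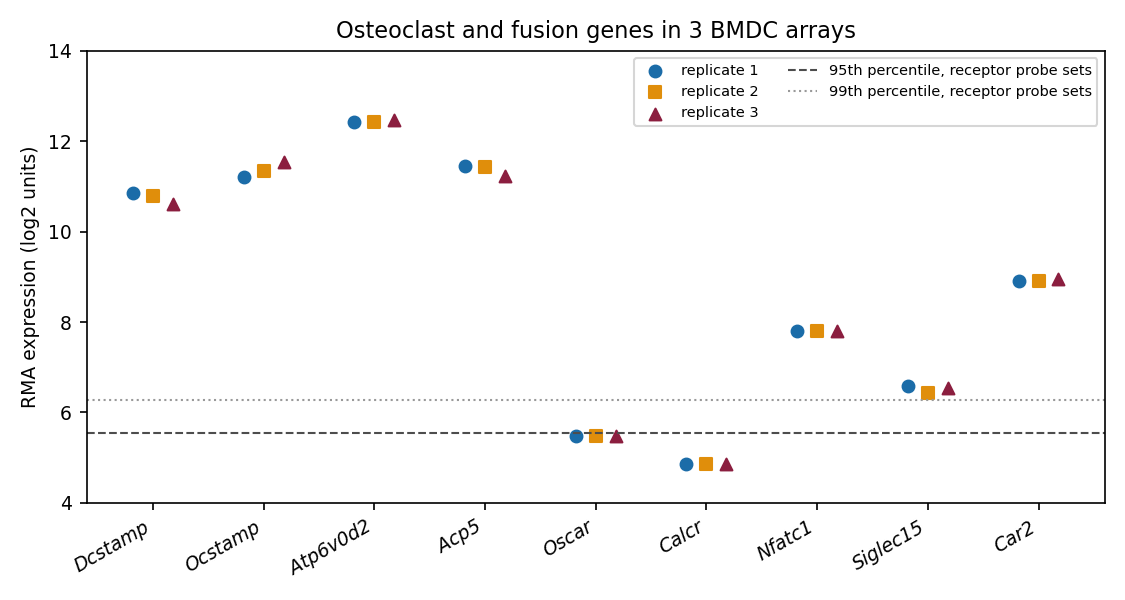
RMA expression in log2 units (vertical axis) of each of the 9 genes (horizontal axis) in replicates 1, 2 and 3 (circle, square and triangle), with the 95th and 99th percentile limits, averaged over arrays, as dashed and dotted lines. Oscar and Calcr lie under the dashed line in each array, Siglec15 lies close above the dotted line, and the other 6 genes lie at 7.80 or higher.

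The fusion proteins were the first group. Dcstamp, the gene of the membrane protein that osteoclast precursors and macrophages need to fuse, had 10.86, 10.78 and 10.60 log2 units in replicates 1, 2 and 3 (10.75 ± 0.13, SD, n = 3). Ocstamp, which encodes a related membrane protein that acts beside DC-STAMP in fusion, had 11.21, 11.35 and 11.54 (11.36 ± 0.16, SD, n = 3). Dcstamp was highest in replicate 1 and Ocstamp in replicate 3, so the order of the arrays was opposite in the pair. Both exceeded the limit by more than 5 log2 units in each array: the smallest margins were 5.05 for Dcstamp and 5.67 for Ocstamp. The remaining genes of the DC-STAMP domain family, Dcst1 and Dcst2, are known for sperm-egg fusion. Dcst1 lay below background at 5.03 in each array, and Dcst2, at 5.70 in each, passed the 95th percentile but not the 99th.

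Partners of macrophage fusion were mostly detected. Of 29 measured genes on that list, 26 (89.7%) were above background and 23 passed the 99th percentile. Among them the tetraspanin genes Cd9 and Cd81, whose products sit in the membrane domains where cells join, had 10.86 ± 0.01 (SD, n = 3) and 11.15 in each array. The receptor gene Sirpa had 11.63 ± 0.02 (SD, n = 3) and its ligand gene Cd47 10.85 ± 0.08 (SD, n = 3). Cd44, a hyaluronan receptor, had 9.55 and Cd36, a scavenger receptor, 12.48 in each array. Cd200, a ligand that restrains myeloid cells, differed most between arrays on this list, with 8.55, 8.80 and 9.18, lowest in replicate 1. Ccl2, a chemokine that draws monocytes, had 11.03, 11.16 and 11.31 in that order too. Below background were Adam12 (5.16), a metalloprotease linked to myoblast and giant cell fusion, the receptor gene Mst1r (5.45), and Synb (5.45 ± 0.02, SD, n = 3), a syncytin of the placenta.

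Atp6v0d2 encodes subunit d2 of the V0 sector, the membrane part of the proton pump (V-ATPase) that acidifies the space under an osteoclast, and mice without it have defects of osteoclast fusion. It had 12.43, 12.42 and 12.46 log2 units, or 12.44 ± 0.02 (SD, n = 3), at least 6.88 above the limit in each array. The arrays lay within 0.05 log2 units of each other for this gene. Its widely expressed paralog Atp6v0d1 was detected as well, with 10.05, 10.08 and 9.96. Of 11 measured genes of the V0 sector and its accessory proteins, 10 were above background. The a subunits place the pump in the cell. Tcirg1, the gene of a3, the subunit of the osteoclast pump, had 11.51 in each array, Atp6v0a1 had 11.37, 11.19 and 11.03, and Atp6v0a2 had 9.49 ± 0.02 (SD, n = 3), or 8.79 as the mean of its 2 probe sets. Atp6v0a4, the gene of the a subunit of kidney and inner ear, lay below background at 5.20. Of the V1 sector, which binds and splits ATP, 10 of 13 genes were above background. The 3 that were not, Atp6v1b1 (5.42 ± 0.04, SD, n = 3), Atp6v1c2 (4.81) and Atp6v1g3 (4.76), are isoforms known from kidney and other epithelia, while the general isoform Atp6v1b2 had 11.87.

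Acp5 encodes tartrate-resistant acid phosphatase, the enzyme stained for in histology to mark osteoclasts and also found in activated macrophages and dendritic cells. It had 11.46, 11.43 and 11.23 log2 units (11.37 ± 0.12, SD, n = 3), with replicate 3 lowest. Car2, carbonic anhydrase II, supplies the protons for acid secretion, and its loss causes osteopetrosis in humans. It had 8.91, 8.91 and 8.95, or 8.92 ± 0.02 (SD, n = 3), and the first pair of values was identical. Of 16 carbonic anhydrase genes 7 (43.8%) were above background, a share under that of all genes, with 5 at the 99th percentile and 4 at the limit from genes of other tissues. Besides Car2 they included the mitochondrial Car5b (8.40, 8.44 and 8.60) and the cytosolic Car13 (9.00 in each array, named after its values were seen). Car9, a target of the hypoxia response, had 6.78, and Car7 (5.92) passed only the 95th percentile. Car1, the isoform typical of red cells, lay below background at 5.14, 5.01 and 5.14, as did Car3 (4.01). Car4 passed in replicate 1 alone, with 5.83, 4.97 and 4.97.

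Erythroid cells also express Car2. Of 10 measured erythroid genes 6 (60.0%) were above background, a share like that of all genes, and 0 at the 99th percentile. Klf1 (4.99), Alas2 (5.03) and Rhag (2.83) lay below background in each array, while Tal1 (6.12), Epor (5.93 ± 0.04, SD, n = 3) and Slc4a1 (5.95 ± 0.03, SD, n = 3) passed the 95th percentile. The globin genes have no probe set of their own here. The mean level of the 10 genes was 5.33, 5.31 and 5.34 log2 units in replicates 1, 2 and 3.

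Other genes of bone resorption were detected almost throughout, with 23 of 24 above background and 22 above the 99th percentile. Ctsk, the collagen-degrading cathepsin K, had 9.28, 9.28 and 9.17, and the metalloprotease genes Mmp9 and Mmp14 had 6.68 ± 0.09 (SD, n = 3) and 8.89. Clcn7 and Ostm1, which form the chloride-proton exchanger that works beside the pump, had 9.87 and 10.49 ± 0.01 (SD, n = 3). Snx10, a sorting nexin mutated in osteopetrosis, had 8.59, 8.65 and 8.77. Rac2, a GTPase of blood cells, had 11.63, 11.55 and 11.34, the widest span on this list together with that of Pip5k1c (9.74, 9.88 and 10.02), a lipid kinase, which went the other way. Kcnk1, a potassium channel gene, was the exception below background (5.23 ± 0.01, SD, n = 3). Many of these genes serve lysosomes in macrophages and dendritic cells in general.

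Nfatc1, the gene of the transcription factor that drives osteoclast differentiation, had 7.80 log2 units in each array, 2.25 to 2.26 above the limit and at least 1.47 above the 99th percentile. Its 3 values were identical to the last deposited digit, as were those of 46.5% of the detected genes, so the missing spread is no measure of precision. Nfatc2 (7.75) and Nfat5 (7.98), a sensor of salt stress, were identical over the arrays too. Nfatc3 had 8.76, 8.76 and 8.71, and Nfatc4 lay below background at 5.21. NFATc1 acts with other factors on its targets, and 12 of 12 genes on the list of osteoclast transcription factors were above background, also at the 99th percentile. Spi1, the gene of PU.1, had 10.96 ± 0.02 (SD, n = 3), and the bHLH factor genes Mitf and Tfe3 had 9.56 ± 0.02 (SD, n = 3) and 9.13 ± 0.04 (SD, n = 3). Mitf has a second probe set, and the mean of the pair was 6.86, which places the second one below background. Its level and its call thus depend on the probe set. Tfec, a relative of Mitf in macrophages, had 10.72, 10.56 and 10.33, and Prdm1, a repressor that lifts the brakes on osteoclast genes, had 7.64 in each array.

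Genes listed as holding back osteoclast differentiation were detected at the same time, 10 of 11 measured. Irf8, which restrains NFATc1 and is also a dendritic cell factor, had 10.06, 10.17 and 10.33, and Bcl6 had 7.57 ± 0.05 (SD, n = 3). Id2 had 11.73 ± 0.02 (SD, n = 3), whereas its relatives Id1 (6.01 ± 0.05, SD, n = 3) passed only the 95th percentile and Id3 (5.16) neither limit. Nfkbia, the inhibitor of NF-kB that NF-kB itself induces, had 9.10, 9.35 and 9.55, lowest in replicate 1. Eomes, better known from killer lymphocytes, had 8.55, 8.31 and 7.53, lowest in replicate 3. Its place on this list is in doubt, and the count includes it.

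Cell surface receptors of the group ranged from just detected to below background. Oscar, a collagen receptor that pairs with the adaptor FcRγ and is induced during osteoclast differentiation, had 5.47 log2 units in each array, 0.07 to 0.08 under the limit. Calcr, the receptor through which calcitonin halts resorption, had 4.87 in each array, 0.66 to 0.68 under it. Siglec15, a sialic acid receptor that pairs with the adaptor DAP12 and is needed for normal osteoclast fusion, had 6.58, 6.43 and 6.55 (6.52 ± 0.08, SD, n = 3), at least 0.90 above the limit and at least 0.19 above the 99th percentile. In no array did it exceed the limit set by genes of other tissues, from which it fell short by 0.03 to 0.16. That limit rests on few genes, since it lies between Ckm (6.38) and Actc1 (6.67). Syn1, also among the genes of other tissues, had 8.16, 8.11 and 7.91, so not all of them need be silent here. It was thus detected or not depending on the limit.

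The relatives of these receptors differed from them in part. Of 9 Siglec genes 8 were above background, 5 at the 99th percentile. Siglec1, the sialoadhesin gene of macrophages, had 9.14, 8.88 and 8.69, Siglecf 8.93, 8.81 and 8.48, Cd33 9.82 in each array and Cd22 8.53 ± 0.01 (SD, n = 3). Mag, known from myelin, had 6.27, Siglece 5.84 and Siglecg 5.81, each identical over the arrays, and Siglech (5.36), the plasmacytoid dendritic cell gene, lay below. In the calcitonin receptor family 3 of 6 genes were above background. Calcrl, which forms receptors for CGRP (calcitonin gene-related peptide) and adrenomedullin, had 8.71, 8.62 and 8.62, and its partner gene Ramp3 had 7.66, 7.70 and 7.45. Ramp1 had 5.71 in each array and passed only the 95th percentile, and Ramp2 (5.14 ± 0.02, SD, n = 3) and the peptide gene Calcb (5.30 ± 0.16, SD, n = 3) lay below it.

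Adaptors and kinases that would serve such receptors were detected in 20 of 21 cases. Tyrobp, the gene of DAP12, had 11.95, 11.96 and 11.82, and Fcer1g, the gene of FcRγ, had 12.08, 12.02 and 12.04. Trem2, a lipid receptor that signals through DAP12, had 10.43, 10.53 and 10.53, and the kinase gene Syk had 9.78, 9.88 and 10.02. Blnk, an adaptor downstream of it, had 9.75, 9.75 and 9.44. The kinase gene Camk4 (5.29) was the exception. The adaptor genes of Oscar and Siglec15 were thus above background in each array, and Oscar in none.

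RANK and M-CSF signalling genes were above background in 21 of 23 cases, and in 21 at the 99th percentile. Tnfrsf11a, the gene of RANK, had 8.31, 8.33 and 8.33. Tnfsf11, the gene of RANKL, had 6.52, 6.42 and 6.42, above the 95th and 99th percentile limits but in no array above the limit set by genes of other tissues. Tnfrsf11b, the gene of the decoy receptor osteoprotegerin, lay below background at 4.76. Csf1r, the M-CSF receptor gene, had 11.03, 10.94 and 10.77, and its ligand genes were split, with Csf1 at 8.28, 8.16 and 7.70 and Il34 (5.45) below background. Fos, which acts upstream of Nfatc1 in osteoclast precursors, had 8.12, 8.17 and 8.61, highest in replicate 3.

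**Figure D2:**
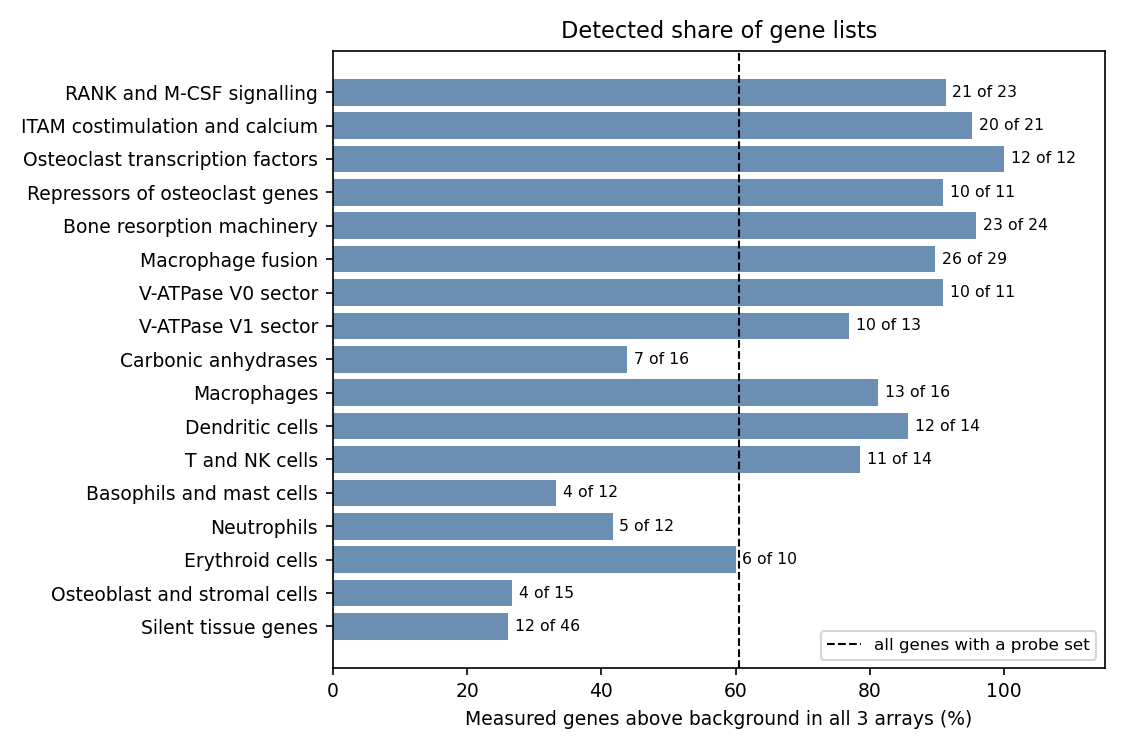
Share of the measured genes of 17 lists (rows) that lay above background in each of the 3 arrays, in percent (horizontal axis), with counts beside the bars and the 60.5% of all genes as a dashed line. Lists of signalling, resorption, fusion and the proton pump lie between 76.9% and 100%, carbonic anhydrases at 43.8% and genes of other tissues at 26.1%.

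Acp5, Oscar and Calcr have been described as targets of NFATc1, and their upstream sequences are shown for a look at the letters NFAT proteins bind. Of the 3, Acp5 was detected. They are the members whose windows were used and not a full set of NFATc1 targets, so their calls give no share of such targets detected. RefSeq windows of build GRCm38.p6 for these 3 of the 9 genes were used, 6 windows in all, each cut to the 250 bases before a listed start. Any windows of the 9 genes on a further chromosome were set aside beforehand, so the look is not complete. For each gene the window with the most NFAT cores is printed, 5′ to 3′ on the gene's own strand, which is the minus strand in each case. Capitals mark the NFAT core, GGAAA or its reverse complement TTTCC.
Acp5 (chr9:22130599-22130848): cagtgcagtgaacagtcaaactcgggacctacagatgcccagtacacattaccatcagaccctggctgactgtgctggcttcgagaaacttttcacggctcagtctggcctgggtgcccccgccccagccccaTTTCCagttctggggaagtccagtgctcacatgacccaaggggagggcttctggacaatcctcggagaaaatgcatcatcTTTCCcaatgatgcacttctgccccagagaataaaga
Oscar (chr7:3616158-3616407): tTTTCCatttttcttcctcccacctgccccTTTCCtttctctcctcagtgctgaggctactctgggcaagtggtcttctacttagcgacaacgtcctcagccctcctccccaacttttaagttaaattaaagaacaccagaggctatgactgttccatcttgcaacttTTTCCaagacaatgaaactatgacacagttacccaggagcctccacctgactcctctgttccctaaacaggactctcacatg
Calcr (chr6:3764714-3764963): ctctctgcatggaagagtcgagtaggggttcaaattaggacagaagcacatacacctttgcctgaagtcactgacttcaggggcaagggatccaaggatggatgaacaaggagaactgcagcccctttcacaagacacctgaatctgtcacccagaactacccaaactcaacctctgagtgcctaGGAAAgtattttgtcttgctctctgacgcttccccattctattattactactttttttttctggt

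The Acp5 window held 2 NFAT cores, starting 117 and 37 bases before the start, the Oscar window 3 (249, 220 and 82 bases before it) and the Calcr window 1 (65 bases before it). The core is short and common: 55.6% of the 32851 windows of this length in the table held at least 1, 21.4% at least 2 and 6.4% at least 3. Each of the other 2 Acp5 windows held 1 core, and the other Calcr window none. Acp5, with 4 cores over its 3 windows, was above background, and Oscar, with 3 in its single window, was below it. Further motifs were searched on both strands. The PU.1 core GAGGAA, which can share letters with the NFAT core, occurred once, in the Oscar window and apart from its NFAT cores (23.3% of all windows hold it). The E-box CATGTG, a form bound by MITF and its relatives, occurred once each in the printed Acp5 and Oscar windows (12.3% of all windows), and the E-box CACGTG (6.0%) in none of the 6. A STAT6 type of site, TTCNNNNGAA, of interest because IL-4 signals through STAT6, occurred once, in the printed Acp5 window, 110 bases before the start (5.9% of all windows). The AP-1 site TGANTCA (6.7%) was in none of the 6. A match of letters is a description and shows no binding.

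The arrays differed by at most 0.33 log2 units in these genes, and not in 1 direction. Of the 9 genes, 3 had identical values in the arrays (Oscar, Calcr and Nfatc1), Car2 had 2 distinct values and 5 had 3. The range over the arrays was 0.33 log2 units for Ocstamp (1.25-fold), 0.26 for Dcstamp (1.20-fold), 0.23 for Acp5 (1.17-fold), 0.14 for Siglec15, 0.05 for Atp6v0d2 and 0.04 for Car2. For orientation, the median range was 0.01 over all detected genes and 0.17 over the 3026 of them with 3 distinct values, and 2.61% of the detected genes spanned 0.5 log2 units or more, which none of the 9 did. The ranges of Ocstamp and Dcstamp exceeded those of 94.5% and 92.0% of the detected genes, and that of Acp5 those of 90%. Each array is a single sample, so no difference between arrays can be tested. In RNA of a mixed culture, fewer cells of a kind and less RNA per cell cannot be told apart.

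**Figure D3:**
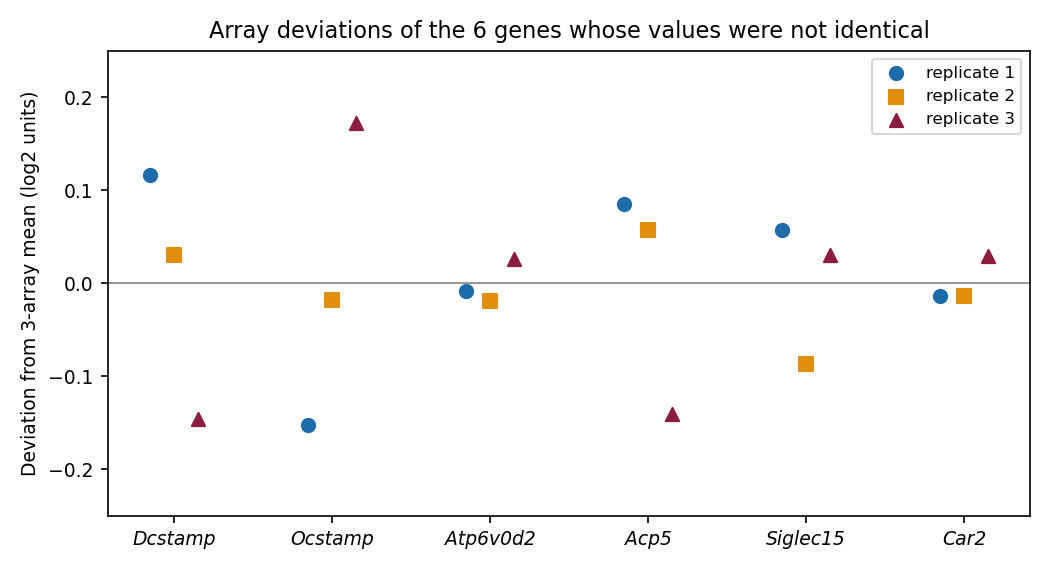
Deviation of each array from the gene's mean over 3 arrays in log2 units (vertical axis) for the 6 genes whose values were not identical, with replicates 1, 2 and 3 as circle, square and triangle. Dcstamp and Acp5 are lowest and Ocstamp is highest in replicate 3, and Atp6v0d2 and Car2 stay within 0.03 of their means.

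Dcstamp and Acp5 were both lowest in replicate 3, at 0.15 and 0.14 log2 units below their means. So were 51.0% of the detected genes with 3 distinct values. Ocstamp was 0.15 below its mean in replicate 1 and 0.17 above it in replicate 3. From replicate 1 to replicate 3 the gap between Ocstamp and Dcstamp thus changed by 0.59 log2 units. A difference between replicates 3 and 1 as low as that of Dcstamp was found in 5.14% of the detected genes, one as low as that of Acp5 in 6.21%, and one as high as that of Ocstamp in 1.43%. Siglec15 was lowest in replicate 2. Setting the array medians equal, or removing the mean deviation of the detected genes, kept the sign of the differences between replicates 3 and 1. These shifts were too small to turn any of them: the smallest, of Siglec15, went from -0.028 to -0.023 and -0.011.

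Genes with a like pattern were common. No member reached the span of 0.5 log2 units planned for this search, so a span of 0.2 was used after the values were seen, which Dcstamp, Ocstamp and Acp5 met. Likeness was the Euclidean distance between the 3 array deviations, taken over 3 arrays and the detected genes. Nearest to Dcstamp were Bcl2 (distance 0.0016), Kcnk6 and Snord73b, nearest to Ocstamp were Polr2e, Aldh9a1 and Antkmt, and nearest to Acp5 were Nans, Cacnb4 and Cope. Within a distance of 0.1 lay 745 genes for Dcstamp, 370 for Ocstamp and 853 for Acp5. Over 3 arrays the nearest genes are thus a few of very many.

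Markers of other cells also differed between the arrays, given here as mean levels over the whole measured list in replicates 1, 2 and 3. The 16 macrophage genes, 13 of them above background in each array, had 9.25, 9.17 and 9.09 log2 units. This order was that of Dcstamp and Acp5, but also that of the T and NK cell, cell cycle and neutrophil lists. Of all detected genes, 10.2% fell from replicate 1 over 2 to 3. Of the 12 detected macrophage genes that were not identical, 9 were lowest in replicate 3, ties counted. Among all detected genes with 3 distinct values, 51.0% were lowest in replicate 3. That share holds no ties, so it is not on the same measure as the macrophage count. Adgre1, the gene of F4/80, had 10.25, 10.18 and 10.04, Mrc1 11.10, 10.91 and 10.67, and C1qa, a complement gene of macrophages, 10.73, 10.40 and 10.09. T and NK cell genes (11 of 14 above background) had 7.43, 7.22 and 6.80, and cell cycle genes (15 of 15) 7.86, 7.62 and 7.14. Basophil and mast cell genes (4 of 12) had 5.78, 5.84 and 5.11, and neutrophil genes (5 of 12) 6.24, 6.16 and 5.60. Among the latter Lcn2 had 7.98, 6.69 and 5.12, Ly6g 6.73, 6.80 and 4.86 and Retnlg 7.35, 7.11 and 5.55, each above background in replicates 1 and 2 and below it in replicate 3. Without replicate 3, 9 neutrophil genes passed. For each of these lists replicate 3 was lowest. The mean level of the dendritic cell marker genes was lowest in replicate 3 too, so this order was not confined to markers of other cells. Of the 9 detected dendritic cell genes that were not identical, 5 were lowest in replicate 3 and 6 in replicate 1, ties counted.

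The 15 osteoblast and stromal genes, 4 of them above background in each array, had mean levels of 5.98, 5.20 and 5.25 log2 units. The higher mean of replicate 1 rested on a few members, Dcn at 8.12, 5.36 and 5.41, Bgn at 8.19, 5.33 and 5.31, Lox at 7.58, 4.47 and 4.63, and Sparc, named after its values were seen, at 7.64, 5.34 and 5.78. The other 11 genes spanned 0.25 log2 units or less. Of the first 6 on the list Sp7 (5.03), Ibsp (4.28) and Dmp1 (4.44) were below background in each array, and Alpl (5.73), Col1a1 (6.80 ± 0.13, SD, n = 3) and Col1a2 (6.41 ± 0.10, SD, n = 3) were above it, the collagen genes also at the 99th percentile. The part of these shifts in the differences of Dcstamp, Acp5 and Ocstamp was not tested. Of 14 dendritic cell marker genes 12 were above background, Itgax (11.91), which encodes CD11c, and H2-Ab1 (12.36 ± 0.05, SD, n = 3) among them. Flt3 (5.39 ± 0.13, SD, n = 3) and Cd209a (4.76) lay below background. Zbtb46, named after its values were seen, had 6.36 and in no array exceeded the limit set by genes of other tissues. The 13 detected macrophage genes include Csf1r, while Cd163 (4.44), Vsig4 (3.27) and Timd4 (5.12 ± 0.03, SD, n = 3) lay below background. The culture thus carried markers of both cell types, and the arrays do not show which cells held the transcripts of the 9 genes.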

How the data were processed

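Expression of 3 BMDC samples was measured on Affymetrix whole-transcript arrays. The authors' values are in log2 units from RMA, which the submitters' processing notes name; software, version and genome build are not given in the sources used here. The column medians were 5.91, 5.91 and 5.91, so the values were taken as normalized and not centred, and no scanner intensities were used here. Probe sets were named from the platform annotation, in which 21789 of 35556 name 1 gene, and the symbols of the 9 genes matched a RefSeq table by Entrez identifier. RMA summarizes probes by median polish, which can return identical values for different arrays; 44.8% of the probe sets had 3 identical values.

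Background limits came from 1210 receptor probe sets, per array. Counts, means, SDs, ranges and Euclidean distances were computed in Python 3.11.15 with pandas 2.3.3 and numpy 2.4.6. No test between groups was possible with 1 group, and the number of arrays limits precision. The genes and the 22 lists around them (a list gene counts as measured where a probe set names it alone) were chosen with earlier results of these data known. Of each list the text names genes from the first 6 measured, up to 4 whose call went against most of the list and up to 3 with the widest range, and whole families for DC-STAMP, NFAT, Siglec and calcitonin receptors. Alternatives covered the limit, the call, the probe set, array scaling and leaving out each array.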

Additional observations from a re-analysis of the deposited data

How the results depend on the processing

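The count of 7 of 9 genes above background was also 7 with the 99th percentile, with the call on the mean and without any 1 array. It was 6 with the limit from genes of other tissues, which drops Siglec15. With a 90th percentile limit chosen after seeing the data it was 8, which adds Oscar (68.2% of all genes passed that limit). Settings of the probe set could not alter this count, since each of the 9 genes had 1 probe set, which names no other gene. Differences between replicates 3 and 1 kept their sign in the 6 genes tested under both scalings, which shifted them too little to turn any sign. The mean of all probe sets could not change these differences, with 1 probe set per gene. Counts for 8 lists moved by more than 1.5 times under some limit. The genes of other tissues went from 12 to 5 with the 99th percentile and 19 with the 90th. With their own limit 3 passed, a number fixed in advance, since that limit is a percentile of these same genes. With the 99th percentile the Siglec family went from 8 to 5, stromal genes from 4 to 2, T and NK cell genes from 11 to 7, erythroid genes from 6 to 0, basophil and mast cell genes from 4 to 2 and neutrophil genes from 5 to 1. With the limit from genes of other tissues the carbonic anhydrases went from 7 to 4 and basophil and mast cell genes to 0. Leaving out an array moved neutrophil genes alone, to 9 without replicate 3. With the mean of all probe sets per gene, the levels of Cd47, Atp6v0a2 and Mitf were 10.47, 8.79 and 6.86. No paired analysis was possible because there is 1 group. Signal over background limits what can be said of Oscar, Calcr and Siglec15, which lie near or under the limits.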
